A study of Mus musculus with 6 samples.

Results

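The deposited table names 201 of its 213957 distinct regions for at least 1 microRNA gene, and these 201 regions are described here. They were chosen by gene symbol alone, as every line whose symbol begins with Mir and a digit or with Mirlet7, which gave 265 lines, 199 symbols and, after lines for the same interval were merged, 201 regions. The measurement was sequencing of DNA captured by a methyl-CpG binding domain (MBD-seq) from hearts of male C57BL/6 mice, with 3 libraries from postnatal day 14 (P14) and 3 from postnatal day 1 (P1), which the series design calls biological replicates. No allele, transgene or treatment distinguishes the ages, so age is the only difference the labels give. The labels call the tissue cardiac left ventricle, whereas the protocol describes ventricles with the septum left in place after the atria were cut away. DNA reads carry no expression of marker genes, so the labelled tissue could not be checked in this way. In whole tissue, a different mix of cell types and a different methylation within 1 cell type cannot be told apart.

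MicroRNAs are short RNAs cut from hairpin precursors, and they repress messenger RNAs that pair with the seed at their 5′ end. Many mammalian microRNA genes lie in introns of host genes or in clusters copied as a single transcript, so methylation over such a gene may also be methylation of its host. In heart muscle, microRNAs carried in myosin heavy chain genes are well known: miR-208a lies in Myh6, miR-208b in Myh7 and miR-499 in Myh7b. In the mouse ventricle Myh7 is the heavy chain of fetal life and Myh6 the one that takes over around birth. Captured reads rise with the number of methylated CpGs in a fragment and give a density per region, so no methylation level of a single site can be read from them.

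The mature sequences below belong to the microRNAs on which the results turn, read from RefSeq on GRCm38.p6, and capitals mark the seed (bases 2 to 8). The first 2 are the microRNAs whose regions had the lowest log2 change of P14 over P1, the next is the one with the smallest p among regions higher at P14, and the myosin microRNAs follow. The last 5 sequences show seeds that recur among the regions.
mmu-miR-5108: gUAGAGCAcuggaugguuu
mmu-miR-449c-5p: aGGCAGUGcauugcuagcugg
mmu-miR-219a-5p: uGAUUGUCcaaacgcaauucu
mmu-miR-208a-3p: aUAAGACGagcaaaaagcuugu
mmu-miR-208b-3p: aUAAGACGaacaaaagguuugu
mmu-miR-499-5p: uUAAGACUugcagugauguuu
mmu-miR-34a-5p: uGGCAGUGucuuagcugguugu
mmu-miR-17-5p: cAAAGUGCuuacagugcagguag
mmu-miR-20a-5p: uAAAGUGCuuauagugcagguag
mmu-miR-93-5p: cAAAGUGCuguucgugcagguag
mmu-miR-106b-5p: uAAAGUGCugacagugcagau
The seed UAAGACG is shared by miR-208a and miR-208b, and the sequence of miR-499 has UAAGACU at the same place. The seed GGCAGUG is shared by Mir34a, Mir449a and Mir449c, and AAAGUGC by Mir17, Mir20a, Mir93 and Mir106b. RefSeq gave a mature sequence for 179 of the microRNA genes, with 22 seeds shared by at least 2 of them.

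The regions sit on the microRNA gene or just before it. Of the 199 symbols, 197 matched a RefSeq gene, 4 of them through a synonym, which left out Mir5105 and Mir5115. All 263 matched pairs of region and symbol overlapped or lay within 3000 bp of each other, with 2985 bp as the largest gap. Of these pairs, 115 overlapped, in 123 the region lay upstream, in 0 it lay downstream, and for 25 the strand of the gene was not given. The naming therefore covers the gene and a window upstream of it, and a region named for a microRNA need not hold its hairpin. Per region, 89 overlapped a gene they were named for, 88 lay upstream only, 22 lay apart from a gene of unknown strand and 2 were unmatched.

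**Figure D1:**
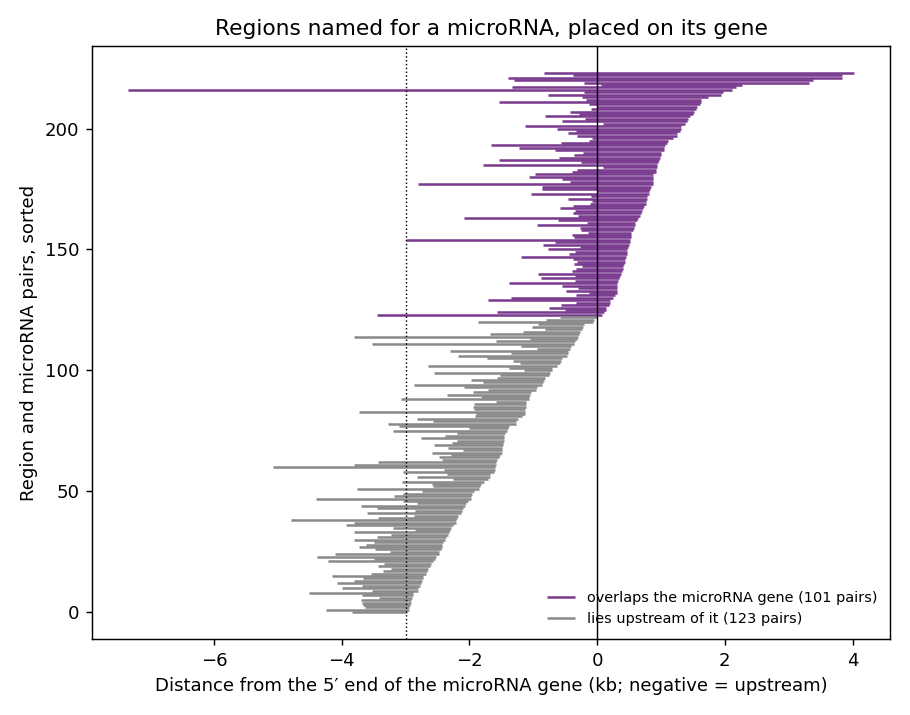
Each line is a region named for a microRNA, drawn by its distance in kb from the 5′ end of that microRNA gene (x axis), for the pairs in which RefSeq gives a strand, sorted by position (y axis). Regions on the gene (101 pairs) reach past 0, the 123 upstream pairs end before it, and the dotted line marks 3 kb upstream.

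Most microRNA regions are shared with other genes. A further gene was named for 167 of the 201, 145 lay in the RefSeq span of a protein-coding gene, and 33 named more than 1 microRNA. Names such as mmu-mir-410, the only other name at Mir3072, count here as further genes and not as microRNAs. Some of the 167 thus name microRNAs only. The most symbols, 7, stood in the region of the Mir17 cluster. Mir17hg there, and Mir22hg on chromosome 11, are long noncoding RNA genes in RefSeq rather than hairpins. The regions lay on 19 chromosomes, with 26 on chromosome 12, 20 on chromosome 7 and 0 on X. Their median width was 1062 bp, from 431 to 9454 bp, against 852 bp over all peaks and 884 bp over the peaks that carry a gene name. The widest, of 9454 bp, lay at Mir33 in Srebf2, a regulator of cholesterol synthesis. Their median density was 1.54 RPKM (reads per kb of region, scaled to the total reads of the libraries), against 1.37 RPKM over all peaks. Regions on the microRNA gene were wider than those upstream only, with a median of 1298 bp against 915.5 bp, and denser, with 1.61 against 1.47 RPKM.

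Taken from the genes instead, 263 of 1005 mouse hairpins listed by RefSeq (26.2%) lay in a peak, 711 in a stretch between peaks and 31 in no region of the table. At least 1 CG stood in the sequence of 74.5% of the hairpins in peaks and of 63.3% of those in the stretches between them, and the mean number of CG per hairpin was 1.74 in peaks and 1.79 in stretches. In the 31 hairpins outside every region, 71.0% held a CG. Of the hairpins that lay in a peak named for them, 101 in number, 82.2% held a CG. Hairpins of chromosome 18 were not analysed here. The 101 also leave out genes without a hairpin strand, such as Mir1a-1, Mir3102 and Mir328, so these counts are not complete.

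Libraries differed in how far peaks stood out. Total reads over distinct regions were 16284216 to 21512072 in P14 libraries and 17532547 to 18505983 in P1 libraries. Peaks held 31.04%, 17.47% and 15.49% of these reads in P14 replicates 1, 2 and 3, and 10.41%, 12.02% and 11.35% in P1 replicates 1, 2 and 3. P14 replicate 1 thus stood apart from the other P14 libraries, and P1 replicate 1 had no read in 2392 peaks, against 30 and 37 peaks in the other P1 libraries. Changes are therefore given within peaks, that is scaled by the reads in peaks alone, unless the whole table is named.

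The microRNA regions followed the peaks in this respect. They held 22254, 10279 and 7046 reads in P14 replicates 1, 2 and 3, and 5356, 6013 and 5656 reads in P1 replicates 1, 2 and 3. The median region held 73, 33 and 24 reads at P14 and 19, 22 and 19 reads at P1, which is the depth behind each value below. Their share of the reads in peaks was 0.333%, 0.294% and 0.279% at P14, against 0.278%, 0.285% and 0.275% at P1. The mean share was 0.302% ± 0.0279 at P14 and 0.28% ± 0.0052 at P1 (SD, n = 3 each), and leaving out P14 replicate 1 gave 0.286% for P14. The ranges overlapped, and the excess lay mainly in P14 replicate 1. No region was without a read at P14, while 5 were in P1 replicate 1.

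Against the stretches next to them, the median microRNA region was 5.2, 3.03 and 2.83 times as dense in P14 replicates 1, 2 and 3, and 1.88, 2.19 and 2.01 times as dense in P1 replicates 1, 2 and 3. All P14 libraries lay above all P1 libraries. The medians over all peaks showed the same order, with 4.69, 2.97 and 2.72 at P14 and 1.71, 2.06 and 1.94 at P1. Whether this higher contrast at P14 comes from the tissue or from the capture of each library was not tested.

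**Figure D2:**
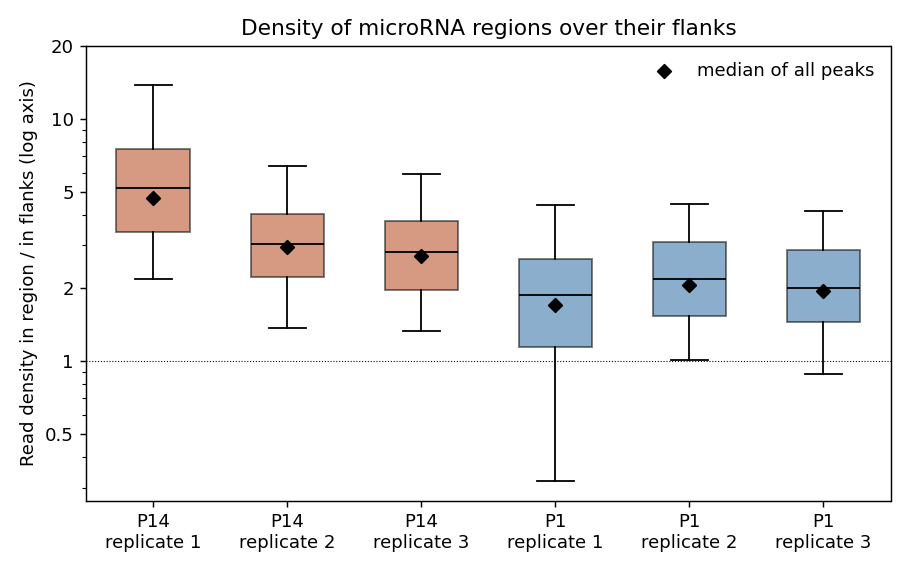
Read density of the microRNA regions divided by that of the neighbouring stretches (log axis), per library, P14 left of P1; boxes show the median and quartiles, whiskers the 5th and 95th percentiles, and diamonds the median of all peaks. The P14 medians of 5.2, 3.03 and 2.83 lie above the P1 medians of 1.88 to 2.19, and the diamonds lie close to the box medians.

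The first question the design asks is which of these regions held more or less captured DNA at P14 than at P1. Across the whole table, edgeR's quasi-likelihood test with Benjamini-Hochberg adjustment over 209063 regions called 0 of the 195 tested microRNA regions in either direction, against a background of 0.0% of all regions higher and 0.0% lower. The smallest adjusted p among them was 0.214. Of the 195, 193 had a positive log2 change in this fit, with a median of 0.79, and the median over all peaks was 0.73. At an unadjusted p under 0.05, 81 microRNA regions were higher and 2 lower at P14 (42.6% together), against 12.7% and 10.3% of all regions (23.0% together). Over the 96755 peaks alone these shares were 27.3% higher and 3.37% lower (30.6% together). DESeq2 also called 0 of the microRNA regions, against 0.0392% of all regions higher and 0.000478% lower, but gave 60 of the 195 no adjusted p. The likelihood ratio test called 8 (4.1%), all higher at P14, against 0.819% of all regions higher, stretches included. Without P14 replicate 1, the quasi-likelihood test called 2, Mir219-2 (log2 change 1.23, adjusted p 0.0494) and Mir3102 (log2 change 1.04, adjusted p 0.0424), both higher, which is 1.03% of the microRNA regions against 0.122% of all regions, stretches included.

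Within peaks the microRNA regions were spread around 0 like other peaks. Of the 195 tested, 0 were called higher at P14, where the background over 96755 peaks was 0.109%, and 1 was called lower, where the background was 2.36%. At an unadjusted p under 0.05 there were 10 higher and 3 lower, against 2.55% and 5.08% of all peaks, or 13 (6.67%) in either direction, against 7.63%. The likelihood ratio test called 1 higher and 2 lower, against 0.35% and 3.9% of all peaks. DESeq2 called 0 higher and 1 lower, against 0.0961% and 2.68%, and gave 9 of the 195 no adjusted p. The median log2 change was 0.05, with quartiles of -0.21 and 0.34 and a range of -2.21 to 1.47, against a median of 0.01 and quartiles of -0.20 and 0.26 over all peaks. Of the regions, 107 lay above 0 and 88 below, and without P14 replicate 1 the median was -0.05. A log2 change beyond 1 in either direction was found in 6 regions (3.1%), against 6.4% of all peaks. The median standard error was 0.34 on the log2 scale. When peaks were instead scaled to the reads between them, the median was 1.10 over all peaks and 1.18 over the microRNA regions. Under that scaling 29 regions were called higher and 0 lower, against 9.43% and 0.115% of all peaks.

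By place relative to the microRNA, the median log2 change was 0.04 over the 87 tested regions on a microRNA gene, 0.05 over the 86 upstream of it and 0.10 over the 20 of unknown side. By CPM (counts scaled to the TMM-adjusted reads in peaks of the library), all P14 libraries lay above all P1 libraries in 13 regions (6.67%), against 5.1% of all peaks. In 7 regions (3.59%) they lay below, against 6.66% of all peaks.

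**Figure D3:**
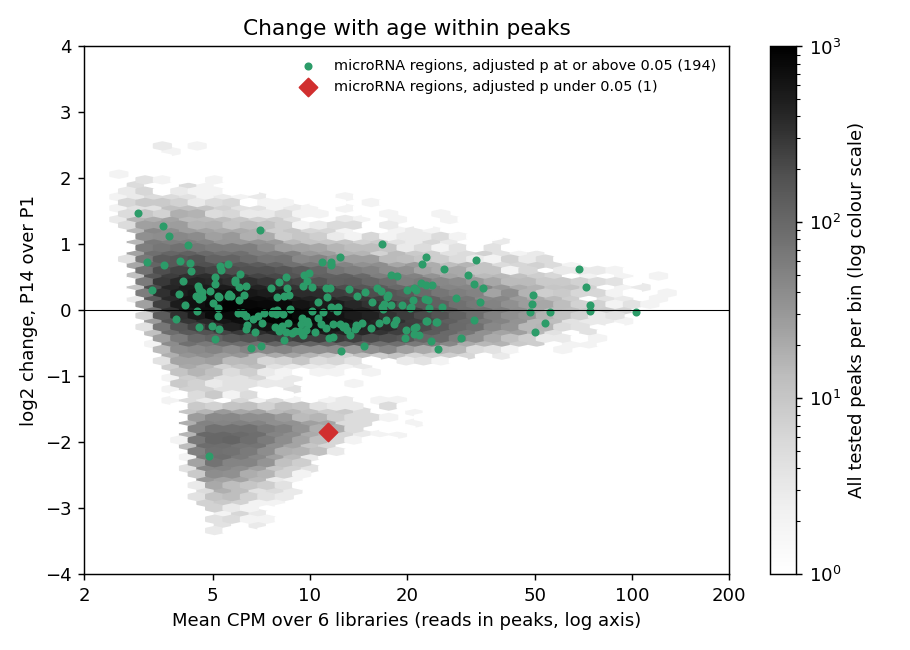
Log2 change of P14 over P1 within peaks (y axis) against mean CPM over the 6 libraries (log x axis) for the 195 tested microRNA regions, over the density of all tested peaks in grey. The microRNA regions follow the main cloud around 0, and 2 of them, one with an adjusted p under 0.05 (diamond), lie in the separate cloud below -1.2.

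The 2 microRNA regions with the lowest log2 change belong to a group of peaks that stands apart from the rest. Below a log2 change of -1.2 there were 4492 peaks, 4.64% of those tested, and 2 of the 195 microRNA regions (1.03%). Between -1.4 and -1.2 lay 83 peaks and between -2.0 and -1.8 lay 1204, so the group is separated from the main cloud by a sparse interval. The bound of -1.2 was set after these values were seen. The median peak of this group held 7, 11 and 9 reads in P14 replicates 1, 2 and 3. In P1 replicates 1, 2 and 3 it held 24, 16 and 16 reads. Its median density over the flanks was 1.5, 1.98 and 1.87 at P14 and 4.25, 2.98 and 2.89 at P1. The contrast was thus widest between P14 replicate 1 and P1 replicate 1. Whether the group stays apart without these libraries was not tested.

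The called region lies upstream of Mir5108, 2448 bp from the gene and within Macroh2a2, which the table lists under its earlier symbol H2afy2 and which encodes a macroH2A histone variant found in repressed chromatin. The region (chromosome 10, 61771259 to 61772289) held 29, 20 and 12 reads in P14 replicates 1, 2 and 3, and 45, 32 and 26 reads in P1 replicates 1, 2 and 3. By CPM every P14 library lay below every P1 library. The region averaged 4.92 ± 0.63 CPM at P14 and 17.8 ± 6.5 CPM at P1 (SD, n = 3 each), and fell 3.6-fold, a log2 change of -1.85 (SE 0.34, adjusted p 0.0255 in edgeR's quasi-likelihood test). Its density over the flanks was 1.88, 1.54 and 1.0 at P14 and 3.11, 2.3 and 2.28 at P1. The adjusted p was 0.212 without P14 replicate 1 and 0.051 without P14 replicate 2, fits in which 0 peaks of the whole set were called. In DESeq2 it was 0.00425, and without both replicates 1 it was 0.049 with a log2 change of -1.42. When peaks were scaled to the reads between them, the log2 change was -0.76 with an adjusted p of 0.184.

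The second region of that group lies upstream of Mir449c, 2307 bp from the gene, on chromosome 13 (113033127 to 113033676), and is also named for Cdc20b. Mir449c belongs to a cluster known from multiciliated cells and has the seed of Mir34a, a microRNA induced by p53. The region held 2, 7 and 9 reads at P14 and 20, 14 and 11 reads at P1, so that the groups did not overlap. It averaged 1.93 ± 1.6 CPM at P14 and 7.8 ± 3.02 CPM at P1 (SD, n = 3 each), a log2 change of -2.21 (SE 0.64) that did not pass the test (adjusted p 0.0737 in edgeR's quasi-likelihood fit). The likelihood ratio test did call it, and without both replicates 1 the log2 change was -1.19. The other regions with the seed GGCAGUG had log2 changes of -0.15 and -0.02, and the first, at Mir34a, held 110, 62 and 37 reads at P14 and 39, 26 and 41 reads at P1.

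Among regions with higher values at P14, the smallest p belonged to Mir219-2, a microRNA gene known for its role in the maturation of oligodendrocytes. Its region (chromosome 2, 29844847 to 29846793) overlaps the hairpin and held 187, 64 and 51 reads at P14 and 25, 16 and 25 reads at P1. It averaged 22.2 ± 5.66 CPM at P14 and 11.3 ± 3.2 CPM at P1 (SD, n = 3 each), with no overlap between the ages. The log2 change of 1.00 (SE 0.29) missed the threshold, with an edgeR adjusted p of 0.0777. It lay between 0.75 and 1.17 when 1 library at a time was left out, and the likelihood ratio test did call it, with an adjusted p of 0.0301. Scaled to the reads between peaks, the log2 change was 2.18 at Mir219-2, 1.92 at Mir3102, 2.40 at Mir208b, 1.94 at Mir1963, 1.87 at Mir3100 and 2.46 at Mir193b, where the median of all peaks was 1.10. The adjusted p of these 6 regions under that scaling lay between 0.0119 and 0.0294. Next came a region of 336, 128 and 92 reads at P14 and 42, 62 and 40 reads at P1 over Mir3102 in Arhgef17 (chromosome 7, 100880933 to 100883944). Its means were 41.1 ± 8.92 CPM at P14 and 24.4 ± 5.31 CPM at P1 (SD, n = 3 each), with no overlap, and its log2 change was 0.76 (SE 0.25, adjusted p 0.133 in edgeR's test).

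Mir1963 and Mir3100 follow by p among the regions with higher values at P14, and neither passed the test. The region upstream of Mir1963 in Ryr1, the calcium release channel of skeletal muscle, held 228, 85 and 73 reads at P14 and 34, 47 and 18 reads at P1, a log2 change of 0.80 (SE 0.29, edgeR adjusted p 0.247) that was 0.48 without P1 replicate 3. A neighbouring region on the Mir1963 gene itself had a log2 change of 0.09 (SE 0.27). At Mir3100 in Dmpk, the kinase gene that carries the repeat of myotonic dystrophy, there were 236, 98 and 48 reads at P14 and 26, 40 and 36 reads at P1, a log2 change of 0.70 (SE 0.27, edgeR adjusted p 0.316) that was 0.44 without P14 replicate 1 and 0.35 without both replicates 1. The Mir1963 region had no overlap between the ages by CPM, and the Mir3100 region did.

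The highest log2 change of all 195, 1.47 (SE 0.62, edgeR adjusted p 0.435), was at Mir193b on chromosome 16 (13449379 to 13450061). Its region overlaps the hairpin and held 20, 18 and 13 reads at P14 and 1, 4 and 4 reads at P1. Its P14 libraries all lay above its P1 libraries, with 4.4 ± 1.16 CPM at P14 and 1.49 ± 0.81 CPM at P1 (SD, n = 3 each), at a depth where a few reads set the value.

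Lower values at P14 outside the separate group were small and none passed the test. Mir1306 lies in Dgcr8, whose protein partners Drosha in cutting hairpins from primary transcripts, and its region held 151, 76 and 38 reads at P14 and 78, 53 and 44 reads at P1, a log2 change of -0.58 (SE 0.28), or -0.23 without P1 replicate 1. The region on the Mir140 gene in Wwp2, a gene pair known from cartilage, had a log2 change of -0.62 (SE 0.31). That of Mir1190 in Ccdc88c had one of -0.46 (SE 0.24), and that of Mir678 in Prmt2 one of -0.43 (SE 0.23). Without P1 replicate 1 the value was -0.32 at Mir140 and -0.25 at Mir1190. The edgeR adjusted p of these regions lay between 0.627 and 0.833. In each of these 4 regions the direction was the opposite when peaks were scaled to the reads between them. Under that scaling a second Mir140 region, 733 bp upstream of the gene, had a log2 change of 1.39, beside 0.50 for the region on the gene.

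Of 15 muscle-enriched microRNA genes in the list, 5 were named for a region, with 8 regions in all. None was called, against the 0.109% and 2.36% of all peaks given above. Their median log2 change was 0.40, from -0.31 to 1.28, with 6 above 0 and 2 below, beside a median of 0.01 over all peaks.

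The 2 regions at Mir208b in Myh7 had the higher changes of the myosin microRNAs. The outer one (chromosome 14, 54978528 to 54979854, 2752 bp upstream of Mir208b) held 84, 34 and 17 reads at P14 and 10, 4 and 11 reads at P1. Every P14 library lay above every P1 library by CPM, with means of 9.69 ± 3.11 at P14 and 4.31 ± 2.05 at P1 (SD, n = 3 each). The log2 change was 1.21 (SE 0.43), with an unadjusted p of 0.0104 and an edgeR adjusted p of 0.21. It ran from 0.85 to 1.45 when 1 library at a time was left out. Without P14 replicate 1 it was 0.93, with an edgeR adjusted p of 0.964. The region directly upstream of Mir208b (54975777 to 54976363) held 20, 19 and 9 reads at P14 and 1, 4 and 9 reads at P1, which overlapped by CPM, and had a log2 change of 0.73 (SE 0.61). Density over the flanks in P1 replicates 1, 2 and 3 was 0.74, 0.31 and 0.88 for the outer region. For the nearer region it was 0.17, 0.71 and 1.62, at the few reads given. At P14 the median ratios were 2.23 for the outer and 2.59 for the nearer region. Over all peaks this ratio was higher at P14 as well, with library medians of 2.72 to 4.69 against 1.71 to 2.06 at P1.

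At Mir208a, which shares the seed UAAGACG and lies in Myh6 on the same chromosome, the values of the ages overlapped. The region on the gene (54948266 to 54949684) held 61, 21 and 15 reads at P14 and 15, 21 and 17 reads at P1, a log2 change of -0.31 (SE 0.35). The region 552 bp upstream (54949694 to 54950863) held 65, 23 and 22 reads at P14 and 19, 11 and 13 reads at P1, a log2 change of 0.19 (SE 0.37). Whether the myosin regions differ from each other in their change was not tested. The region upstream of Mir499 in Myh7b (chromosome 2, 155620534 to 155621829) held 116, 62 and 41 reads at P14 and 23, 32 and 43 reads at P1. Its log2 change was 0.05 (SE 0.26), with 17.1 ± 0.94 CPM at P14 and 16.5 ± 4.21 CPM at P1 (SD, n = 3 each), the highest level of the muscle list.

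The region over Mir1a-1, a microRNA abundant in heart and skeletal muscle, held 24, 20 and 15 reads at P14 and 0, 4 and 8 reads at P1 (chromosome 2, 180388807 to 180389470). Its lowest P14 value lay under its highest P1 value by CPM, and the log2 change of 1.28 (SE 0.66) had an edgeR adjusted p of 0.761. The 2 regions near Mir486 in Ank1, a gene of the membrane skeleton whose short forms occur in muscle, had log2 changes of 0.61 (SE 0.51) and -0.05 (SE 0.37), both with overlapping groups, and the first was 0.26 without P14 replicate 1.

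**Figure D4:**
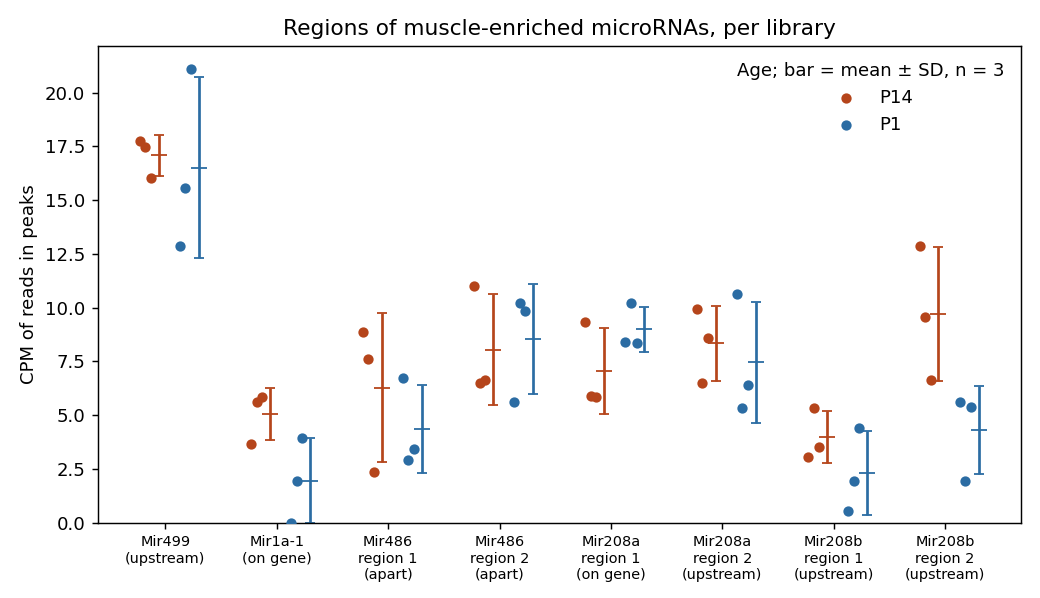
CPM of reads in peaks (y axis) in each library for the 8 regions of muscle-enriched microRNAs, P14 left of P1, with the mean ± SD (n = 3) beside the points. The outer Mir208b region (region 2) is the one in which all P14 points lie above all P1 points, and the Mir499 region has the highest level at both ages.

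MicroRNAs linked to heart cell division and growth were in part absent from the named regions. Of 13 genes of the miR-15 family, known for limiting division of mouse heart muscle cells after birth, 0 had a region. Of 19 genes of the miR-17 to miR-92 clusters, 9 shared 3 regions, with log2 changes from -0.30 to 0.34 and none called. The Mir17 cluster region (chromosome 14, 115043543 to 115044775) covers the hairpins from Mir17 to Mir92-1 and held 52, 56 and 37 reads at P14 and 14, 26 and 18 reads at P1. Its means were 12.7 ± 4.18 CPM at P14 and 9.77 ± 2.54 CPM at P1 (SD, n = 3 each), with overlapping values and a log2 change of 0.34 (SE 0.34), or 0.63 without P14 replicate 1 and 0.19 without P1 replicate 1. The regions at Mir106b, Mir25 and Mir93 in Mcm7, a subunit of the replicative helicase, had log2 changes of -0.30 (SE 0.31) on the genes and 0.08 (SE 0.27) upstream. Mir17, Mir20a, Mir93 and Mir106b, which share the seed AAAGUGC, are named for these 3 regions, whose median log2 change was 0.08. The region with that value lies upstream of its genes, and those on the genes had 0.34 and -0.30.

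A further list of 21 genes tied to heart cell proliferation had 8 regions, a median log2 change of 0.09 and a range from -0.54 to 0.32, with 5 above 0 and none called. At Mir199a-1, which lies in Dnm2, the region on the gene held 109, 33 and 23 reads at P14 and 50, 20 and 32 reads at P1, a log2 change of -0.54 (SE 0.35). It was -0.06 without P1 replicate 1 and -0.93 without P14 replicate 1. The region upstream had a log2 change of -0.28 (SE 0.24). Mir199a-2 in Dnm3 and Mir199b in Dnm1, whose 3p forms have the same sequence as that of Mir199a-1, had regions with log2 changes of 0.32 (SE 0.57) and 0.19 (SE 0.27). Their values overlapped between the ages throughout. The 2 regions of Mir141 and Mir200c, microRNAs of epithelial cells, had log2 changes of 0.03 and 0.15. By a Mirlet7 symbol, 1 region was found for the 15 listed let-7 genes. Mir99a and Mirlet7c-1 shared it, with a log2 change of 0.28 (SE 0.63) and 0 reads in P1 replicate 1. The region of Mir125a and Mir99b also carries the name mmu-let-7e, which that symbol form leaves out. It had a log2 change of -0.25 (SE 0.61).

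MicroRNAs of vessels and fibroblasts had 3 regions for 38 listed genes, with log2 changes between -0.21 and 0.08. Mir143 and Mir145, the smooth muscle pair on chromosome 18, shared a region of 135, 50 and 40 reads at P14 and 33, 40 and 26 reads at P1. Its means were 16.8 ± 3.45 CPM at P14 and 16.9 ± 3.6 CPM at P1 (SD, n = 3 each), a log2 change of 0.01 (SE 0.27). Mir29a and Mir29b-1, which target collagen messages, had regions with log2 changes of -0.21 (SE 0.27) on the genes and 0.08 (SE 0.27) upstream.

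Markers of other cell types were covered as well. The list of neuronal and epithelial microRNAs had 14 regions for 13 of its 40 genes, with a median log2 change of 0.21, a range of -0.33 to 1.00 and 10 above 0. Its highest value is that of Mir219-2 given above, and none of the 14 was called. The blood list had 3 regions with a median of 0.36 and a range of -0.19 to 0.67, and none was called. The lowest value was that of the region on the Mir142 gene. No region was named for the 6 listed microRNAs of the Hox clusters.

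The largest cluster among the regions is that of the imprinted Dlk1-Dio3 domain on chromosome 12, where many microRNAs are copied from the maternal chromosome downstream of Meg3. Of 64 listed genes, 40 were named, over 18 regions that span 185.5 kb. Names written with the prefix mmu-mir are not counted in the 40. Their median log2 change was -0.07, from -0.46 to 0.73, with 7 above 0 and 11 below, and none was called. Together they held 0.0304%, 0.0253% and 0.0278% of the reads in peaks in P14 replicates 1, 2 and 3, and 0.0219%, 0.0323% and 0.0247% in P1 replicates 1, 2 and 3. The ages overlapped in this share.

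Within this cluster neighbouring regions had values on both sides of 0, none past the threshold. Rtl1, a gene derived from a retrotransposon and expressed from the paternal chromosome, holds several of these microRNAs on its opposite strand. Its region over Mir431 held 249, 106 and 68 reads at P14 and 29, 62 and 32 reads at P1, a log2 change of 0.62 (SE 0.27, edgeR adjusted p 0.515). The adjoining region, which covers Mir127, Mir433 and Mir434, was the deepest of the cluster, with 531, 236 and 188 reads at P14 and 123, 183 and 136 reads at P1. It averaged 73.7 ± 7.42 CPM at P14 and 74.8 ± 12.3 CPM at P1 (SD, n = 3 each), a log2 change of -0.02 (SE 0.22). Further along, a region over Mir543 and Mir666 held 86, 52 and 34 reads at P14 and 5, 28 and 16 reads at P1, a log2 change of 0.73 (SE 0.37). P1 replicate 1 was the lowest there, and the ages overlapped by CPM. The next region, 218 bp upstream of Mir495, had a log2 change of -0.46 (SE 0.35).

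**Figure D5:**
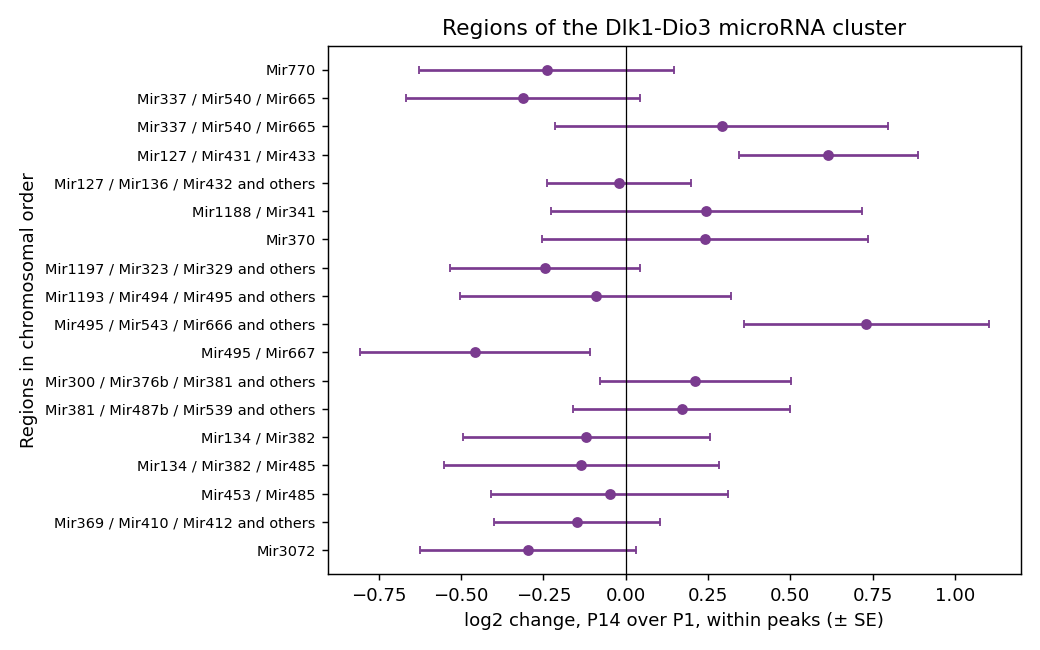
Log2 change of P14 over P1 within peaks, with its standard error (x axis), for the 18 regions of the Dlk1-Dio3 microRNA cluster, from top to bottom in chromosomal order. The values run from -0.46 to 0.73 on both sides of 0.

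Other imprinted microRNA genes were looked up after their values were seen. Mir335 lies in Mest, which is expressed from the paternal chromosome and methylated on the maternal one at its promoter. The region named for Mir335 (chromosome 6, 30736504 to 30739094, 2205 bp upstream of the gene) holds a RefSeq promoter window of Mest, shown here because it lies whole within the region. The reads are counted over the region and cannot be placed on the window. The window is 300 bases long, on the plus strand of GRCm38.p6 at chr6:30737800-30738099, with each CG in capitals.
Mest promoter window: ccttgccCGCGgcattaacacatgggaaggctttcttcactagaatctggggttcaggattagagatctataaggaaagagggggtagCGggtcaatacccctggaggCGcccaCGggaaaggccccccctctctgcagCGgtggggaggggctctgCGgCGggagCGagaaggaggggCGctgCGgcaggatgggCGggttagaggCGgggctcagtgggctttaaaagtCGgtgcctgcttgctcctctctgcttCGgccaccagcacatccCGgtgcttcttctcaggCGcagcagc
It holds 17 CG, counted on 1 strand since the motif CG reads the same on both, and 31.4% of 32851 RefSeq promoter windows of this length hold as many or more, with a median of 7. The region held 162, 98 and 53 reads at P14 and 38, 53 and 39 reads at P1. The means were 24.4 ± 3.47 CPM at P14 and 22.1 ± 3.38 CPM at P1 (SD, n = 3 each), with overlapping values and a log2 change of 0.15 (SE 0.24).

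Mir675 is cut from H19, a long noncoding RNA expressed from the maternal chromosome and abundant in fetal tissue. Its region on the gene held 171, 56 and 54 reads at P14 and 27, 31 and 28 reads at P1, with no overlap by CPM and a log2 change of 0.54 (SE 0.27, edgeR adjusted p 0.703). The region 2520 bp upstream held 120, 70 and 48 reads at P14 and 55, 49 and 39 reads at P1, with overlap and a log2 change of -0.37 (SE 0.25). Mir296 and Mir298, in the imprinted Gnas domain, shared a region with a log2 change of 0.00 (SE 0.35).

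The densest microRNA region was that of Mir5105 in Cdk8, the kinase of the mediator complex, with 10.9 RPKM, which ranked 9 among all 101239 peaks. It lies on chromosome 5 (146260595 to 146261698) and held 638, 277 and 187 reads at P14 and 166, 92 and 51 reads at P1. P1 replicate 1 was the highest P1 library there, and the groups overlapped by CPM, with means of 82.9 ± 13 at P14 and 54.2 ± 34.9 at P1 (SD, n = 3 each). The log2 change was 0.63 (SE 0.32, adjusted p 0.746 in edgeR's quasi-likelihood test), and without P1 replicate 1 it was 1.25 with an adjusted p of 0.0375. Without both replicates 1 it was 1.12 with an adjusted p of 0.0113. RefSeq, as used here, has no entry for Mir5105. The next densest regions were that upstream of Mir3572 in Cnot3, a subunit of the deadenylase complex, at 3.68 RPKM and a log2 change of 0.12 (SE 0.27), and that of Mir1306 at 3.45.

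The filter on low counts removed 6 of the 201 regions, namely those of Mir466b-3, Mir130a, Mir466k and Mir3105 and 1 region each of Mir3572 and Mir709. They held 22 to 47 reads in P14 replicate 1, except Mir466b-3 with 11, and 3 to 19 reads in each P1 library. Mir466b-3 belongs to a family of near-identical hairpins in Sfmbt2, so the reads of its region may be split between copies.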

How the data were processed

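The authors deposited 1 table of read counts per region (whole numbers, not divided by depth or length) for 6 MBD-seq libraries. Per the labels' protocols, sonicated DNA was enriched with the MethylMiner kit and read for 36 cycles on a Genome Analyzer IIx. The submitters' processing notes list BWA, bedtools, edgeR 3.2.4 and MACS, with GRCm38 (mm10), and give no roles, but peak-calling settings and duplicate handling are given by no source used here.

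The members and gene lists were chosen with earlier results of these data known. Peaks (101239) and stretches between them were inferred from touching borders, gene names, widths and read density, and density alone settled 8513 regions. Counts were tested with edgeR 4.0.16 in R 4.3.3 (quasi-likelihood F test, TMM, default low-count filter, age as the only term, Benjamini-Hochberg threshold 0.05), once over the whole table and once within peaks, where CPM uses TMM-scaled peak reads. The standard error is the log2 change divided by the square root of F. Named were every called region, the 6 smallest p in each direction, up to 20 members of 5 lists and the 3 densest. DESeq2 1.42.0, other scalings, a likelihood ratio test, no filter and left-out libraries were the alternatives. Coordinates and sequences are from RefSeq GRCm38.p6. Standard errors and p-values cover only the spread between these libraries.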

Additional observations from a re-analysis of the deposited data

How the results depend on the processing

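Calls changed with the scaling, the test and the libraries, while most log2 changes of named regions kept their sign. In the fit over the whole table, the count called higher at P14 was 8 with the likelihood ratio test (4.1%, against 0.819% of all regions). With both replicates 1 left out it was 10 (5.24%, against 1.19%). With 1 library at a time left out it was 2 without P14 replicate 1 (1.03%, against 0.122%). In each other fit of that kind 0 regions of the whole table were called, so 0 was the only possible count. These shares of all regions include the stretches, and the shares over peaks alone are not given here. Within peaks the count called higher was 29 when scaled to the reads between peaks (14.9%, against 9.43% of all peaks). It was 1 with the likelihood ratio test (0.513%, against 0.35%). With both replicates 1 left out it was 1 (0.524%, against 0.0579%). Over the single libraries left out it was 0 to 1, against 0 to 0.0782% of all peaks. The count called lower within peaks was 0 when scaled to the reads between peaks (against 0.115%) and 2 with the likelihood ratio test (1.03%, against 3.9%). Over the single libraries left out it was 0 to 1, against 0 to 1.64% of all peaks. With the replicate number as a block it was 0, and 0 peaks were called in all. Same-numbered libraries showed no shared deviation (correlations of -0.045, -0.044 and 0.024). At these read depths such values cannot exclude that the numbers mark pairs. Over regions that overlap the microRNA gene, the share of peak reads was 0.166% at P14 and 0.152% at P1.

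Signs turned for named regions with log2 changes from -0.62 to 0.32 within peaks, none of them called. The lowest of these, at Mir140, Mir1306 and Mir199a-1 on its gene, turned when scaled to the reads between peaks. Scaled to the reads between peaks, log2 changes were 0.58 for Mir1306, 0.50 for Mir140, 0.62 for Mir1190, 0.63 for Mir678, 0.85 for Mir208a on its gene, 1.11 for the nearer Mir486 region, 0.78 for Mir106b on its gene, 0.97 for Mir34a, 0.68 and 0.81 for Mir199a-1, and 0.85 for Mir29a on its gene. Under this scaling the median of all peaks was 1.10, while in the fit scaled within peaks it was 0.01. With both replicates 1 left out, they were -0.12 for Mir499, 0.23 for Mir106b on its gene, -0.01 for Mir99a, -0.19 for Mir199b, -0.07 and -0.04 for Mir141, -0.12 for Mir143 and -0.20 for Mir29a upstream. For Mir143 they were -0.00083 in DESeq2 and -0.01 with the replicate block. With 1 library at a time left out, they ran from -0.01 to 0.53 for Mir208a upstream, -0.09 to 0.26 for Mir499, -0.38 to 0.09 for the nearer Mir486 region, -0.53 to 0.11 and -0.14 to 0.24 for Mir106b, -0.18 to 0.71 for Mir199a-2, -0.29 to 0.99 for Mir99a, -0.05 to 0.33 for Mir199b, -0.08 to 0.14 for Mir141, -0.18 to 0.14 for Mir143, -0.15 to 0.28 for Mir29a upstream and -0.05 to 0.26 for Mir3572. The cause of these shifts was not tested. At a median of 19 to 73 reads per region and library, changes of the size of the standard errors given were not detectable.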
